A study of Caenorhabditis elegans with 40 samples.

Results

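KLE-2 is the kleisin of condensin II in *C. elegans*, and the data described here measure the mRNA of entire L3 larvae after KLE-2 was cut. The comparison uses 8 of the 40 samples of the series, all of batch 1 and none grown on auxin. It sets 4 KLE-2 cleavage samples of strain PMW775 against 4 TEV control samples of strain PMW366. Strain PMW775 carries *kle-2(ubs14[FLAG-TEVcs])*, in which a FLAG tag and a target site of the TEV protease were placed in the chromosomal *kle-2* gene, together with the transgene *ubsSi20*, which makes TEV protease from the heat shock promoter of *hsp-16.2*. Strain PMW366 carries *ubsSi20* without a target site. For PMW366 the study's strain list adds *unc-119(ed3)* and gives *Cbr-unc-119(+)* as part of *ubsSi20*. That list has no entry for PMW775, so the *unc-119* allele of PMW775 is not given there. Both groups were thus heat-shocked and carried the protease transgene. Synchronized L1 larvae spent 3 h on food at 22 °C, received a heat shock of 30 min at 34 °C and were collected 19 h later. The protease depends on a promoter that answers to heat, and how much KLE-2 was cut in these samples is not measured by RNA. The 2 other groups of batch 1 used here, with 4 samples each, serve only for direct tests: SCC-1 cleavage (strain PMW784, *scc-1(ubs19[FLAG-TEVcs])* with *ubsSi20*), which cuts a cohesin kleisin, and DPY-26 cleavage (strain PMW382, *dpy-26(ubs4[FLAG-TEVcs])* with *ubsSi20*), which cuts the kleisin that condensin I shares with the dosage compensation complex.

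Condensins are ring-shaped complexes of a pair of SMC ATPases, a kleisin that closes the ring, and HEAT repeat subunits that bind the kleisin. In condensin II of *C. elegans* the SMC proteins are MIX-1 and SMC-4, the kleisin is KLE-2, and the HEAT subunits are HCP-6 and CAPG-2. The complex is known for compacting and segregating mitotic chromosomes, and thus for a role in cells that divide. In L3 larvae most somatic cells no longer divide, while the germline, the seam and the vulval precursors do. Larvae also build a new cuticle for each stage, and many genes for the cuticle of the body and of the pharynx are transcribed in pulses tied to the moult.

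Of 14331 genes tested, 168 were called after KLE-2 cleavage at an adjusted p under 0.05 (edgeR, quasi-likelihood test, p adjusted after Benjamini-Hochberg), which is 1.17% of them. Of these, 60 genes (0.419%) were higher and 108 (0.754%) lower. The median log2 fold change was 1.57 among the higher genes, with a range of 0.53 to 3.63, and −2.19 among the lower genes, with a range of −4.62 to −0.52. Over all genes tested the median was 0.02. Changes above 1 on the log2 scale were found in 46 of the higher genes, and changes below −1 in 93 of the lower ones. In all 168 the 4 cleavage samples and the 4 control samples did not overlap, as in 1877 of all genes tested (13.1%). Without adjustment, 1175 genes were higher and 997 lower at p under 0.05. The calls sat close to the threshold, with a smallest adjusted p of 0.0182, and which sample carries them is described further on.

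The libraries held between 36617778 and 66248369 reads, and KLE-2 cleavage replicate 3 was the shallowest and stood apart. Its TMM scaling factor was 0.73, against 1.05 to 1.09 in the other cleavage samples and 0.99 to 1.08 in the controls. In a principal component analysis of the 16 samples of batch 1, the second component (26.1% of the variance) placed it at −131, and every other sample lay between −3.5 and 29.6. All 25 neuronal, 17 muscle, 12 intestinal and 16 germline marker genes were measured, as were 8 of 10 epidermal ones. Of 13 sperm markers 2 passed the filter on low counts, and of 8 adult markers 2 did, which summed to 1 to 2.28 CPM after cleavage, against 3.3 to 4.49 CPM in the control. The whole animal was sampled, so fewer cells of a type and less RNA per cell cannot be told apart. Nothing in the labels says that the replicates were separate cultures, so the p-values measure the spread between these samples, which may be technical.

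The mRNA of *kle-2* itself was lower after cleavage of its product. The gene (WBGene00016202, chromosome III, positions 7941717 to 7945593 of WBcel235, plus strand) had 23.9, 25.9, 18.9 and 23.3 CPM in the cleavage samples, against 38.1, 36.6, 37.1 and 36.2 CPM in the controls. CPM are read counts scaled to library size with TMM factors. Every cleavage sample lay below every control. The log2 fold change was −0.68 ± 0.112 (SE, adjusted p = 0.0327), and it was −0.60 without replicate 3 (adjusted p = 0.0168). The gene overlaps *gsto-1* (log2 fold change −0.29, adjusted p = 0.533), it carries the inserted site in one group only, and RNA does not show whether the protein was cut.

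No other condensin II gene was called by edgeR, while DESeq2 also called *hcp-6* lower (adjusted p = 0.0285), whose groups did not overlap. The fold change on the log2 scale was −0.26 ± 0.0861 for *hcp-6* (adjusted p = 0.194), −0.31 ± 0.141 for *capg-2* (adjusted p = 0.349), −0.18 ± 0.141 for *mix-1* (adjusted p = 0.595) and −0.19 ± 0.181 for *smc-4* (adjusted p = 0.664). All 5 values were below 0, and the median of the 5 genes was −0.26. For *mix-1* and *smc-4*, which condensin I also uses, replicate 3 held the lowest value: *smc-4* had 64.9, 73.8, 38.5 and 56.9 CPM in the cleavage samples, against 67.8, 66.6, 63.5 and 68.9 CPM in the controls. Without replicate 3, *mix-1* and *smc-4* differed by −0.06 and −0.03. Per length, the kleisin gene averaged 5.21 ± 0.895 TPM after cleavage and 8.46 ± 0.349 TPM in the control, and *mix-1* averaged 10.6 ± 2.36 TPM after cleavage and 12.1 ± 0.782 TPM in the control (SD, n = 4 each).

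**Figure D1:**
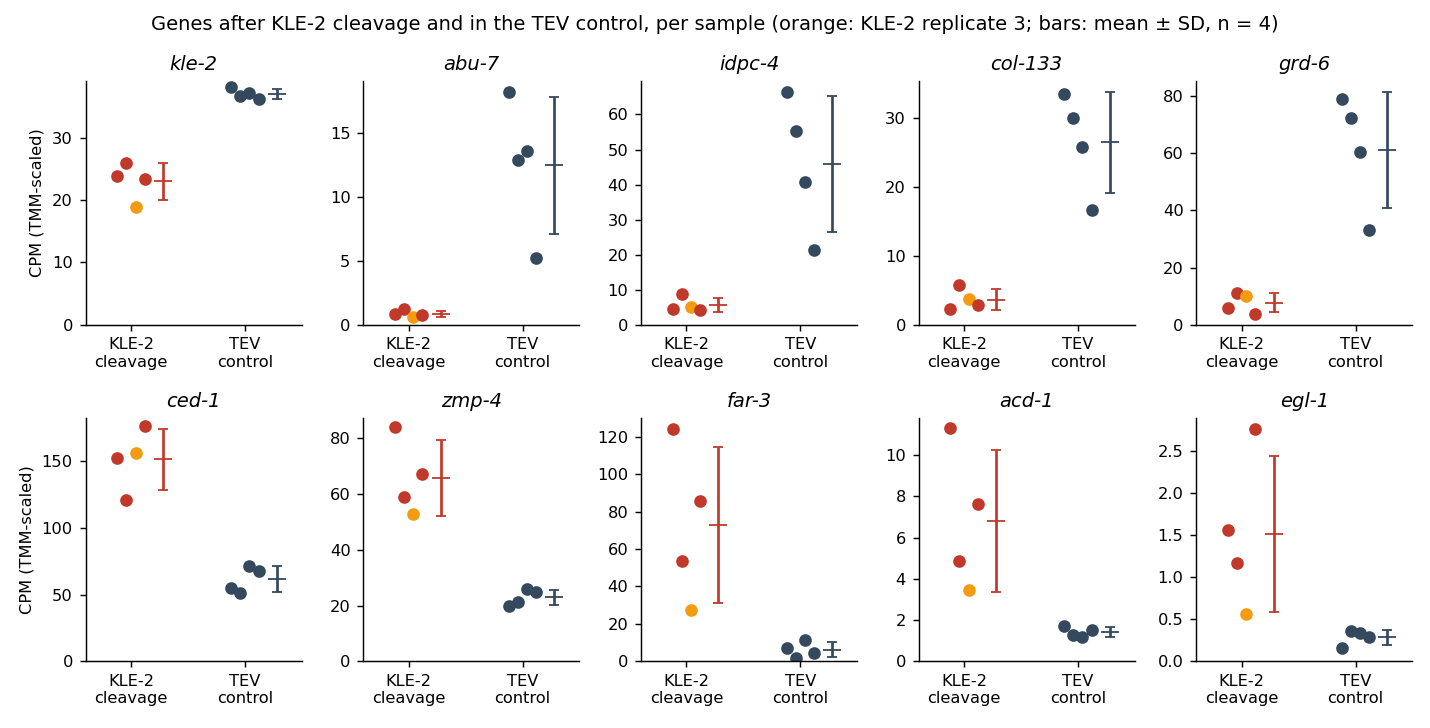
CPM after TMM scaling (vertical axes, linear, each from 0) of 10 genes in the 4 KLE-2 cleavage samples (left) and the 4 TEV control samples (right); bars give the mean and SD. Replicate 3 of KLE-2 cleavage is orange. The groups do not overlap in any of the 10 genes, and in *zmp-4*, *far-3*, *acd-1* and *egl-1* replicate 3 is the cleavage sample closest to the control.

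Genes of the pharyngeal cuticle made up 19 of the 108 falling genes. The pharynx is the feeding organ, and its lumen is lined by a flexible cuticle rich in disordered proteins encoded by the *abu* and *idp* families. Of 41 tested members of these families, 19 were called lower (46.3%, against 0.754% of all genes) and 0 higher, and the median log2 fold change was −2.09. At an unadjusted p under 0.05, 33 were lower and 3 higher, against 997 and 1175 of all 14331 genes. DESeq2 called 28 lower and 2 higher, against 3.36% and 3.64% of all genes. The families were grouped after their values were seen, so the counts describe them and test nothing.

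*abu-6* had the largest fall of all called genes. It had 0.428, 0.923, 0.15 and 0.416 CPM in the cleavage samples, against 18.2, 12.9, 13 and 5.08 CPM in the controls (log2 fold change −4.62 ± 0.549, adjusted p = 0.022). Its neighbour *abu-7* had 0.818, 1.22, 0.637 and 0.752 CPM, against 18.2, 12.9, 13.6 and 5.21 CPM in the controls (−3.85 ± 0.406, adjusted p = 0.0182). The groups did not overlap in either gene, although control replicate 4 was the lowest control in both. Together with *abu-15* (−3.54) the 2 genes form a cluster on chromosome V, between positions 5158602 and 5164782. They belong to 1 family, so how Salmon divided reads between them is uncertain, and *abu-6* also overlaps C03A7.15.

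A second run of the same kind lay on chromosome V between 9618231 and 9629214, where *idpc-3* to *idpc-7* all fell, by 2.81 (*idpc-3*) to 3.66 (*idpc-6*) on the log2 scale. *idpc-4* had 4.59, 8.64, 5.09 and 4.13 CPM in the cleavage samples, against 66.4, 55.2, 40.7 and 21.4 CPM in the controls (−3.03 ± 0.386, adjusted p = 0.0223). *idpc-5* had 1.6, 3.77, 1.87 and 1.33 CPM, against 34.8, 28.3, 22.4 and 11.7 CPM in the controls (−3.50 ± 0.44, adjusted p = 0.022), and *idpc-6* fell most, by 3.66 ± 0.497 (adjusted p = 0.0242). Control replicate 4 was again the lowest control, and the groups did not overlap. Members on other chromosomes moved in the same direction, among them *idpb-2* on II (−2.85), *idpp-12* on IV (−2.43), *idpp-10* on I (−1.89) and *abu-10* on X (−2.53). The family did not move as a whole, since *abu-13* was at 0.03 (adjusted p = 0.973) and *idpp-16* at 1.84 (adjusted p = 0.226).

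Within the cleavage group the size of this change varied. The median of the 41 genes relative to the control mean was −2.63, −1.41, −1.97 and −3.26 on the log2 scale in cleavage replicates 1 to 4, against 0.42, 0.20, 0.03 and −0.66 in control replicates 1 to 4. Replicate 3 lay inside the range of the other cleavage samples, and control replicate 4 was the control closest to the cleavage samples. The *pqn* genes are named for stretches rich in glutamine and asparagine and were also grouped after their values were seen. Of 50 tested, 4 fell (8%, against 0.754% of all genes) and none rose by edgeR. At an unadjusted p under 0.05, 11 were lower and 7 higher, against 997 and 1175 of all 14331 genes. DESeq2 called 8 lower and 2 higher, against 3.36% and 3.64% of all genes. *pqn-57* had 0.0186, 0.207, 0.112 and 0.144 CPM after cleavage, against 3.31, 2.22, 2.19 and 1.21 CPM in the control (−4.17 ± 0.539, adjusted p = 0.0223), and *pqn-2* fell by 3.59 (adjusted p = 0.022), *pqn-54* by 2.89 and *pqn-36* by 1.63. Over all *pqn* genes the median was −0.05.

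**Figure D2:**
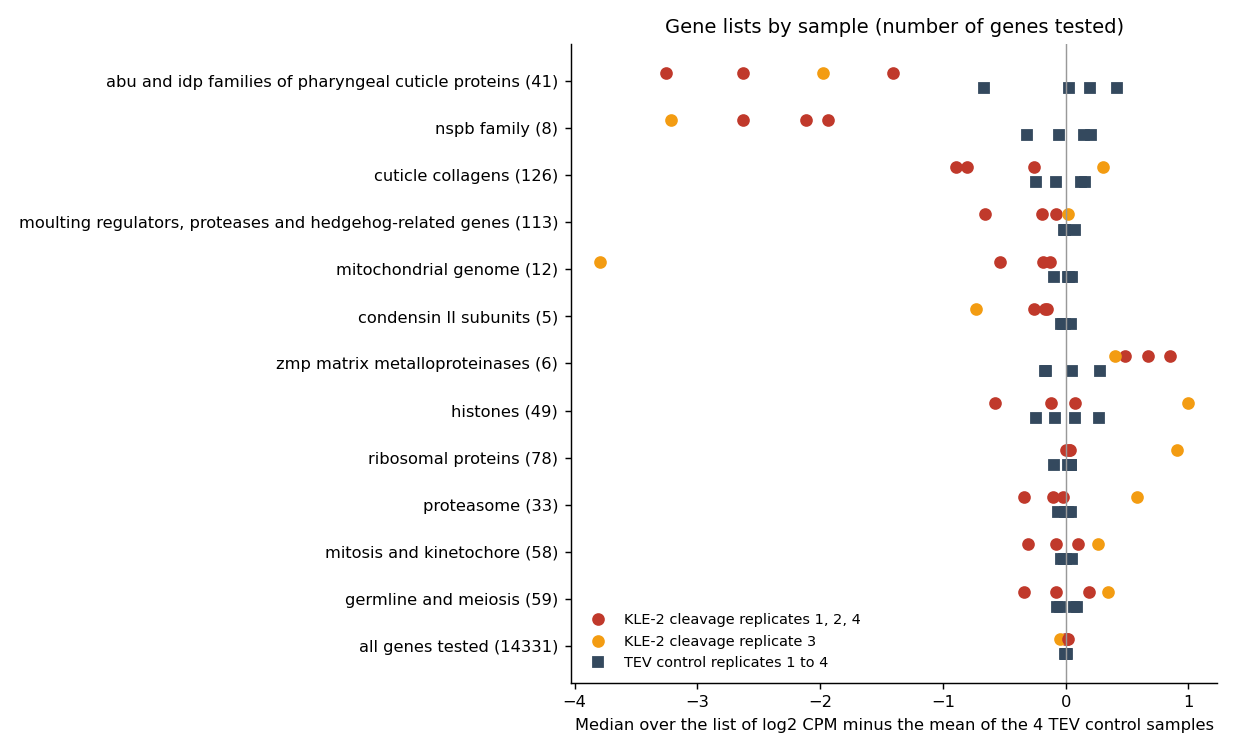
Median over each gene list (number of genes tested in brackets) of log2 CPM minus the mean of the 4 control samples, for the cleavage samples (circles, replicate 3 orange) above the control samples (squares). The *abu* and *idp* families and the *nspb* family lie below every control in all 4 cleavage samples, whereas in collagens, histones, ribosomal and proteasome genes replicate 3 lies above the other 3 cleavage samples, and in the mitochondrial genome far below them.

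Genes of the body cuticle also changed, in smaller numbers. Of 126 cuticle collagens 6 fell (4.76%, against 0.754% of all genes) and 1 rose (0.794%, against 0.419%), with a median log2 fold change of −0.41. *col-133* had 2.34, 5.74, 3.71 and 2.82 CPM after cleavage, against 33.6, 30, 25.8 and 16.6 CPM in the control (−2.86 ± 0.331, adjusted p = 0.0203). *col-161* had 12.8, 21.6, 21.3 and 12.1 CPM, against 119, 111, 93.3 and 53.5 CPM in the control (−2.48 ± 0.305, adjusted p = 0.022). *col-12*, *col-115*, *col-130* and *col-162* fell too, and *col-43* rose at a low level, with 0.465, 0.49, 0.637 and 0.32 CPM after cleavage, against 0.123, 0.12, 0.0888 and 0.148 CPM in the control (1.95 ± 0.308, adjusted p = 0.0312).

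The collagens did not move together. DESeq2 called 23 of the 126 higher and 22 lower, against 3.64% and 3.36% of all genes, so by that test both directions held more collagens. The median relative to the control was −0.80, −0.26, 0.31 and −0.89 in cleavage replicates 1 to 4, so that replicate 3 lay above all controls (−0.24 to 0.16). Without replicate 3 the median was −0.65, with 7 lower and 1 higher, against 1.22% and 1.1% of all genes. The summed level of the 8 epidermal markers varied likewise, from 2002 to 7857 CPM among the cleavage samples, the lowest in replicate 4 and the highest in replicate 3, against 4751 to 5904 CPM in the controls. Its part in the collagen changes was not tested.

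Among 113 genes for moulting, astacin proteases and hedgehog-related proteins, 5 fell (4.42%, against 0.754% of all genes) and 1 rose (0.885%, against 0.419%). Their median was −0.06. *grd-6*, a hedgehog-related groundhog-like gene, had 5.99, 11.1, 10.1 and 3.82 CPM after cleavage, against 78.8, 72.4, 60.3 and 33.1 CPM in the control (−2.98 ± 0.397, adjusted p = 0.0235). *grl-27*, a ground-like gene, fell at a low level (−2.05 ± 0.283, adjusted p = 0.0265), and the other 3 were the astacin genes *nas-1*, *nas-8* and *nas-30*. The gene that rose was *ptr-8*, a patched-related membrane protein, with 49.9, 29.1, 32.2 and 60.7 CPM after cleavage, against 13, 10.8, 19.4 and 13.1 CPM in the control (1.61 ± 0.276, adjusted p = 0.0357). In all of these genes the groups did not overlap.

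The *nspb* genes, a family of small nematode-specific peptides, were low in every library and lower after cleavage. Of 8 tested, 7 fell (87.5%, against 0.754% of all genes), by 1.79 to 4.33 on the log2 scale. *nspb-7* had 5, 2, 0 and 3 reads in the cleavage samples, against 58, 48, 81 and 57 reads in the controls (−4.33 ± 0.442, adjusted p = 0.0182), and *nspb-9* had 3, 1, 0 and 6 reads, against 35, 32, 49 and 41 reads (−3.71 ± 0.48, adjusted p = 0.0223). *nspb-7* to *nspb-10* lie within 10 kb on chromosome II and resemble each other, so their separate values are uncertain. This family, too, was picked after its values were seen.

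The other falling genes belonged to many functions. In the detoxification list 2 of 169 genes fell and 2 rose (1.18% each, against 0.754% and 0.419% of all genes, median 0.00). *ugt-25* and *ugt-28*, neighbouring genes for UDP-glucuronosyltransferases, fell by 1.79 and 1.32 (adjusted p = 0.0335 and 0.0312). In the fatty acid list 1 of 36 fell (2.78%, against 0.754% of all genes), the elongase gene *elo-9*. It had 14.4, 13.6, 14.8 and 17.2 CPM after cleavage, against 28.4, 29.9, 23.7 and 21.5 CPM in the control (−0.78 ± 0.14, adjusted p = 0.0397). Without KLE-2 replicate 3, edgeR called 5 of the 36 fatty acid genes lower and 1 higher, against 1.22% and 1.1% of all genes. For the 169 detoxification genes those counts were 5 and 4. C06A1.7, among the largest falls, had 6, 24, 6 and 5 reads after cleavage, against 161, 149, 210 and 84 reads in the control (−3.62 ± 0.556, adjusted p = 0.0312).

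The next genes were chosen from the called ones after their values were seen, for what they are known to do. *bcl-11*, a zinc finger transcription factor, averaged 74.4 ± 22.1 CPM after cleavage and 273 ± 80.2 CPM in the control (SD, n = 4 each; log2 fold change −1.88 ± 0.277, adjusted p = 0.0309). *gon-1*, a secreted protease needed for the shape of the gonad, had 131, 147, 146 and 127 CPM, against 225, 217, 197 and 201 CPM (−0.61 ± 0.105, adjusted p = 0.0362). *fhod-1*, a formin of body wall muscle, fell by 0.85 (adjusted p = 0.0312), and *lonp-2*, a peroxisomal Lon protease, by 0.69 (adjusted p = 0.0311). In each of the 4 genes all cleavage samples lay below all controls.

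Genes that rose were fewer than those that fell by edgeR's adjusted p in the main fit, but not by DESeq2 (522 against 481) or by the unadjusted p. They were also more in the edgeR fits with all 16 samples of batch 1 (333 against 296) and with the batch 2 controls added (34 against 7). The largest increases by the naming rule were in F48C1.11, *far-3*, Y39A3B.7, *delm-2*, Y41G9A.5, *zmp-3*, ZK105.1 and Y41G9A.10. *far-3*, a fatty acid and retinol binding protein, had 124, 53.4, 27.7 and 85.5 CPM after cleavage, against 7.17, 1.88, 11.4 and 4.56 CPM in the control (3.54 ± 0.625, adjusted p = 0.0397). Both groups spread widely in this gene, which overlaps *far-5*, yet they did not overlap, and replicate 3 was the lowest cleavage sample. F48C1.11, with the largest fold change, rested on few reads: 118, 31, 40 and 47 after cleavage, against 8, 3, 10 and 2 in the control (3.63 ± 0.609, adjusted p = 0.0339).

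Matrix metalloproteinases cut proteins of basement membranes and other matrix. The *zmp* genes were grouped after their values were seen, and 2 of 6 rose (33.3%, against 0.419% of all genes). *zmp-4* had the smallest p of the higher genes, with 84.2, 59.1, 52.9 and 67.2 CPM after cleavage, against 19.9, 21.4, 25.8 and 24.8 CPM in the control (1.52 ± 0.164, adjusted p = 0.0182). *zmp-3* had 17.8, 9.75, 17.2 and 33.5 CPM, against 3.33, 2.52, 5.44 and 3.76 CPM in the control (2.37 ± 0.391, adjusted p = 0.0328). Of the other 4 tested members none was called by edgeR: *zmp-2* was at 1.00 (adjusted p = 0.189), *zmp-1* at 0.19, *zmp-5* at −0.20 and *zmp-6* at −2.01 (adjusted p = 0.105). DESeq2 called 1 member lower.

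*ced-1* and *ced-6* rose together. CED-1 is the receptor with which a neighbouring cell recognizes a dying cell, and CED-6 is the adaptor that binds its tail. *ced-1* had 152, 121, 156 and 176 CPM after cleavage, against 55.1, 51.5, 71.5 and 67.5 CPM in the control (1.298 ± 0.158, adjusted p = 0.022). *ced-6* had 22.1, 19.2, 23.1 and 22.8 CPM, against 15, 14, 14.3 and 12.8 CPM in the control (0.64 ± 0.108, adjusted p = 0.0344). The third gene of that pathway, *ced-7*, was at −0.10, and *ced-2*, *ced-5*, *ced-10* and *ced-12* of the parallel pathway lay between −0.10 and 0.20 with adjusted p of 0.555 or more. Thus 2 of 7 engulfment genes, grouped after their values were seen, were called higher (28.6%, against 0.419% of all genes).

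The gene that starts programmed cell death, *egl-1*, missed the threshold with all samples. It had 1.56, 1.17, 0.562 and 2.77 CPM after cleavage, against 0.163, 0.36, 0.34 and 0.296 CPM in the control (2.39 ± 0.479, adjusted p = 0.0585). The groups did not overlap, and replicate 3 was the lowest cleavage sample. Without it, the log2 fold change was 2.64 (adjusted p = 0.0237). *ced-3*, *ced-4* and *ced-9*, which act after *egl-1*, were at −0.06, 0.21 and 0.10 (adjusted p of 0.538 or more), and *cep-1*, the worm p53 homologue, at −0.17 (adjusted p = 0.753). *ced-11*, also named for a cell death phenotype but in none of the lists and picked after its values were seen, was lower (−1.097 ± 0.172, adjusted p = 0.0312). Of all 35 genes for DNA damage and apoptosis, 0 were called by edgeR, 1 was higher at an unadjusted p under 0.05, and DESeq2 called 1 higher.

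The DEG/ENaC family forms sodium channels of neurons, muscle and glia. The family was grouped after its values were seen. Of 31 members 2 rose (6.45%, against 0.419% of all genes), the adjacent genes *acd-1* and *delm-2* on chromosome I. DESeq2 called 4 higher and 2 lower, against 3.64% and 3.36% of all genes. *acd-1* had 11.3, 4.86, 3.45 and 7.62 CPM after cleavage, against 1.72, 1.28, 1.17 and 1.51 CPM in the control (2.27 ± 0.365, adjusted p = 0.0312). *delm-2* had 95, 44, 11 and 69 reads, against 6, 4, 12 and 11 reads (2.90 ± 0.468, adjusted p = 0.0314). Over the family the median was 0.01, and replicate 3 was the lowest cleavage sample in both genes. The neighbouring genes Y41G9A.5 and Y41G9A.10 on chromosome X rose by 2.75 (adjusted p = 0.0369) and 2.31 (adjusted p = 0.0203).

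Among detoxification and defence genes, edgeR called few. *gst-24* and *gst-15*, neighbouring genes for glutathione S-transferases, rose by 1.78 (adjusted p = 0.0309) and 0.85 (adjusted p = 0.0397). Of 209 immune effectors 1 rose (0.478%, near the 0.419% of all genes, median 0.18). The gene was the C-type lectin gene *clec-247* at under 1 CPM (1.61 ± 0.289, adjusted p = 0.0406). DESeq2 called 10 of the 209 higher and 3 lower, against 3.64% and 3.36% of all genes. Without KLE-2 replicate 3, edgeR called 5 higher and 0 lower, against 1.1% and 1.22% of all genes. Chosen after their values were seen, *hsp-43*, of the small heat shock protein family, averaged 78.1 ± 28.3 CPM after cleavage and 21.3 ± 4.47 CPM in the control (SD, n = 4 each; log2 fold change 1.87 ± 0.276, adjusted p = 0.0309), and *fkh-7*, a forkhead factor, averaged 102 ± 3.4 CPM after cleavage and 62.7 ± 4.53 CPM in the control (0.70 ± 0.0926, adjusted p = 0.0231). Both rose in every cleavage sample.

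Of the 22 gene lists, 16 had no called member, and these include every list on cell division and the germline. They hold 575 tested genes, of which edgeR called 0 in either direction, with 28 higher and 11 lower at an unadjusted p under 0.05. Of all 14331 genes tested, 1175 were higher and 997 lower at that p. DESeq2 called 8 higher and 4 lower of the 575, against 522 and 481 of all genes (3.64% and 3.36%). With limma voom and sample quality weights the counts were 19 and 21, against 1137 and 1224 of all genes. The lists on mitosis and kinetochore (58 genes, median 0.00), DNA replication and S phase (42, median −0.00) and germline and meiosis (59, median 0.05) were centred close to 0, as were 11 cohesin genes (0.01), 9 genes of condensin I and dosage compensation (0.05) and 26 genes of vulval and seam cell development (0.09). The 16 sperm genes had a median of 0.06, the 34 insulin pathway genes 0.17, the 101 neuropeptide genes 0.27, the 11 heat shock genes 0.04 and the 13 genes for stress of the endoplasmic reticulum and mitochondria −0.03. Without replicate 3 the medians were −0.08 for mitosis, −0.12 for replication, −0.04 for the germline, −0.29 for heat shock and −0.13 for stress of the endoplasmic reticulum and mitochondria.

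The member with the smallest p in each of these lists stayed short of edgeR's threshold with all samples. It was *spd-5*, a centrosome scaffold (−0.36, adjusted p = 0.244), for mitosis, *lig-1*, DNA ligase I (−0.22, adjusted p = 0.388), for replication, and *gld-2*, a cytoplasmic poly(A) polymerase (−0.30, adjusted p = 0.178), for the germline. It was *smc-3* (−0.16, adjusted p = 0.556) for cohesin, *sdc-1* (0.29, adjusted p = 0.386) for dosage compensation, *egl-18*, a GATA factor of seam and vulva (0.51, adjusted p = 0.162), and *fer-1* (0.87, adjusted p = 0.32) for sperm. In the insulin list *ins-27* was at 0.53 (adjusted p = 0.0651). In the neuropeptide list it was *nlp-27*, at 2.73 (adjusted p = 0.0771), with 77.2, 26.5, 28.8 and 138 CPM after cleavage, against 7.4, 5.58, 16.9 and 10.8 CPM in the control. That list was formed by gene name alone, so membership does not show that *nlp-27* acts as a signal between neurons. *dve-1*, of the mitochondrial stress response, was at −0.38 (adjusted p = 0.179), the Hsp70 gene F44E5.4 at −0.74 (adjusted p = 0.477) and the yolk protein gene *vit-1* at −1.41 (adjusted p = 0.0832, yolk median over 2 genes −1.26). DESeq2 called *gld-2* (adjusted p = 0.0314), *egl-18* (0.0425), *ins-27* (0.001), *nlp-27* (7.86e-05) and *vit-1* (0.00126), and without replicate 3 edgeR called *ins-27* (adjusted p = 0.0465), *nlp-27* (0.0481) and *vit-1* (0.0235). The germline markers summed to 448 to 740 CPM after cleavage, against 562 to 604 CPM in the control.

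Replicate 3 was the highest cleavage sample in many of these lists, among them mitosis (0.27), replication (0.22), the germline (0.35) and stress of the endoplasmic reticulum and mitochondria (0.52), each relative to the control. Histone genes (49 tested) had medians of −0.12, 0.08, 1.00 and −0.58 relative to the control in cleavage replicates 1 to 4, ribosomal protein genes (78) had 0.03, 0.03, 0.90 and 0.00, and proteasome genes (33) had −0.10, −0.02, 0.58 and −0.34. Here, too, it was the highest in each. The medians of the fitted changes were 0.23, 0.31 and 0.07 with it, and −0.22, 0.02 and −0.16 without it. *rpl-36* had 1213, 1101, 2279 and 1254 CPM after cleavage, against 1116, 1106, 1037 and 1061 CPM in the control (0.44, adjusted p = 0.442), *his-8* was at −0.92 (adjusted p = 0.173, DESeq2 0.0411) and *rpn-6.1* at −0.21 (adjusted p = 0.448).

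Replicate 3 differed from the other cleavage samples across much of the transcriptome. Its value lay more than 1 on the log2 scale from the mean of the other 3 in 3478 genes (24.3%), of which 2694 were below that mean. The same count was 768, 1052 and 1984 genes for cleavage replicates 1, 2 and 4, and 222 to 353 genes for a control against its other 3. The difference followed the level of a gene. With the genes ordered by mean CPM and split into 10 bins of equal size, the median difference of replicate 3 from the others was −0.65 in the lowest bin and 0.59 in the highest.

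**Figure D3:**
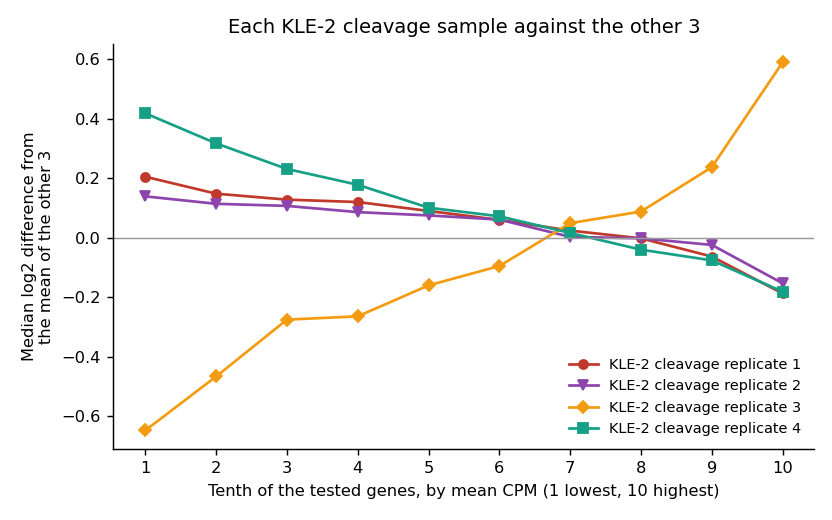
Median log2 difference of each cleavage sample from the mean of the other 3 (vertical axis) over 10 equal bins of the tested genes ordered by mean CPM (horizontal axis, 1 lowest). Replicate 3 runs from −0.65 in the lowest bin to 0.59 in the highest, and the other 3 samples run the other way; each of them is compared with a mean that includes replicate 3.

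Some transcripts were all but missing from replicate 3. Of the tested genes 174 had 0 reads in it, against 1 to 8 in each of the other 7 samples. In 78 genes replicate 3 was under 5% of the lowest other sample, where that sample had over 1 CPM, and the same was true of 1 gene in control replicate 1 and of none in the other 6 samples. None of the 78 was among the 168 called genes. That follows in large part from how they were picked, since 1 sample far from its own group makes a call unlikely. Of the genes called lower, 3 had 0 reads in replicate 3, and 0 of them had 0 reads in any other sample. The 12 genes of the mitochondrial genome summed to 914 CPM in replicate 3, against 9160, 9446 and 8292 CPM in cleavage replicates 1, 2 and 4 and 9842 to 10944 CPM in the controls. Their median log2 fold change was −0.68 with all samples and −0.32 without replicate 3, and edgeR, DESeq2 and the unadjusted test at p under 0.05 called 0 of them. The summed CPM of all tested genes was highest in replicate 3, at 1370101. It was 917022 to 950714 in the other cleavage samples and 925653 to 1006098 in the controls. Marker sums were highest in replicate 3 for intestine (11102 CPM, against 5336 to 8172 in the other cleavage samples and 6088 to 6250 in the controls). The same held for muscle (24867, against 16528 to 19877 and 16131 to 17641), neurons (2053, against 1610 to 1849 and 1571 to 1626), germline and epidermis. It did not hold for somatic gonad and vulva (37.2, against 37.9 to 41.9 and 35.5 to 41). These sums therefore do not single out a tissue. What set replicate 3 apart was not tested.

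Most calls were also made without replicate 3. Among the 168 genes, chosen with it in the fit, it was the most extreme of the 4 cleavage samples in 49 and the one closest to the control in 34. Without it 157 genes were called higher and 175 lower (1.1% and 1.22% of the genes tested), so that the number of calls grew. Of the 168 genes 153 kept their call, 57 higher and 96 lower. The log2 fold changes of the 168 moved by 0.07 in median and by 0.31 at most.

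**Figure D4:**
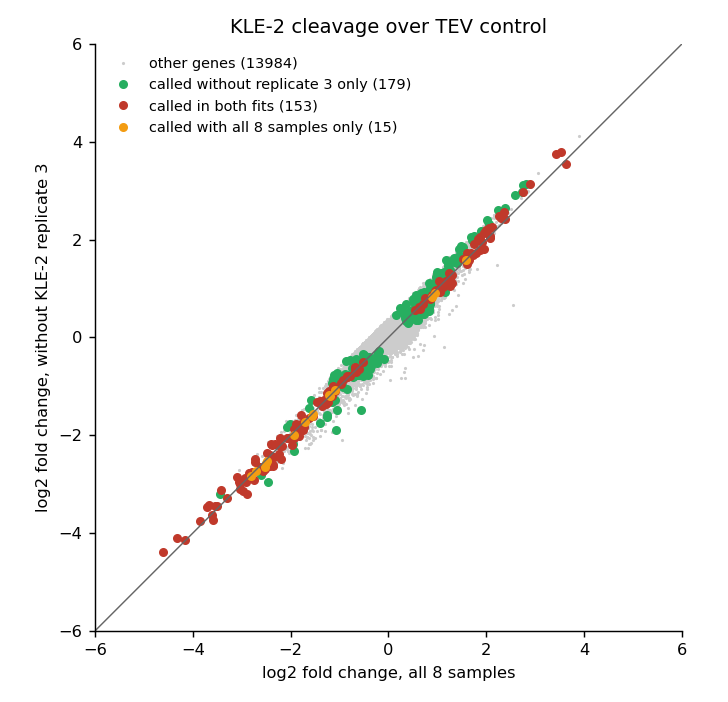
Log2 fold change of KLE-2 cleavage over TEV control with all 8 samples (horizontal) and without KLE-2 replicate 3 (vertical) for every gene tested; the line marks equal values. The 153 genes called in both fits and the 15 called only with all samples lie along the line, and the 179 called only without replicate 3 lie mostly farther from 0 on the vertical axis than on the horizontal one.

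The 15 genes that lost their call, 3 higher and 12 lower, did so by little, with adjusted p of 0.0502 to 0.0622 without replicate 3. The 3 higher ones were *glt-1*, a glutamate transporter (0.95, and 0.91 without replicate 3), *let-4*, a protein of the apical extracellular matrix (1.58, and 1.58 without replicate 3), and T02B11.4 (0.90, and 0.83 without it). Among the lower ones, those with the smallest p were *idpb-5* (−2.72), *col-115* (−2.48), W08E12.6 (−2.51), *lagr-1*, a ceramide synthase gene (−1.57), and *idpc-3* (−2.81).

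Leaving replicate 3 out added 179 genes, 100 higher and 79 lower, and in 49 of them replicate 3 alone lay on the other side of the control mean. The 10 with the smallest p, 5 in each direction, were taken after the values were seen. Among the higher ones were *pals-26*, with 3.78, 3.82, 0.225 and 4 CPM after cleavage, against 0.511, 0.5, 0.799 and 0.696 CPM in the control (2.61 without replicate 3, adjusted p = 0.0119), and *pgp-8*, a P-glycoprotein, with 5.69, 4.31, 1.76 and 7.6 CPM, against 1.04, 1.08, 1.14 and 1.41 CPM (2.32 without it, adjusted p = 0.0131). E04F6.8 (2.39), the cystatin gene *cpi-1* (1.34) and F13H10.6 (0.56) also rose without it. Among the lower ones were *asp-12*, an aspartyl protease, with 8.56, 9.75, 33.8 and 6.22 CPM, against 35.6, 30.4, 23.3 and 32.3 CPM (−1.90 without replicate 3, adjusted p = 0.0168), *ugt-6* (−0.74), *ugt-63* (−1.59), *ltah-1.2* (−0.76) and Y62E10A.13 (−0.77).

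Leaving out some of the other samples lowered the count of calls, down to 0. The fit without cleavage replicate 1 called 0 genes (edgeR, smallest adjusted p 0.0822), as did those without control replicate 1 (0.0839), 2 (0.0875) or 3 (0.0688), although each still had 655 to 1113 genes in each direction at an unadjusted p under 0.05. Without cleavage replicate 4 the counts were 8 higher and 8 lower, without control replicate 4 they were 11 and 88, and without cleavage replicate 2 they were 116 and 168. The highest adjusted p of any of the 168 genes in any of these 8 fits was 0.197. DESeq2 on all 8 samples called 522 genes higher and 481 lower (3.64% and 3.36%), limma voom with sample quality weights 1137 and 1224, and both lists held all 168 genes. The limma voom weights were 4.04, 0.74, 0.0736 and 0.484 for cleavage replicates 1 to 4, and 1.37 to 2.14 for the controls. Within the cleavage group that fit thus leaned most on replicate 1 and least on replicate 3.

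**Figure D5:**
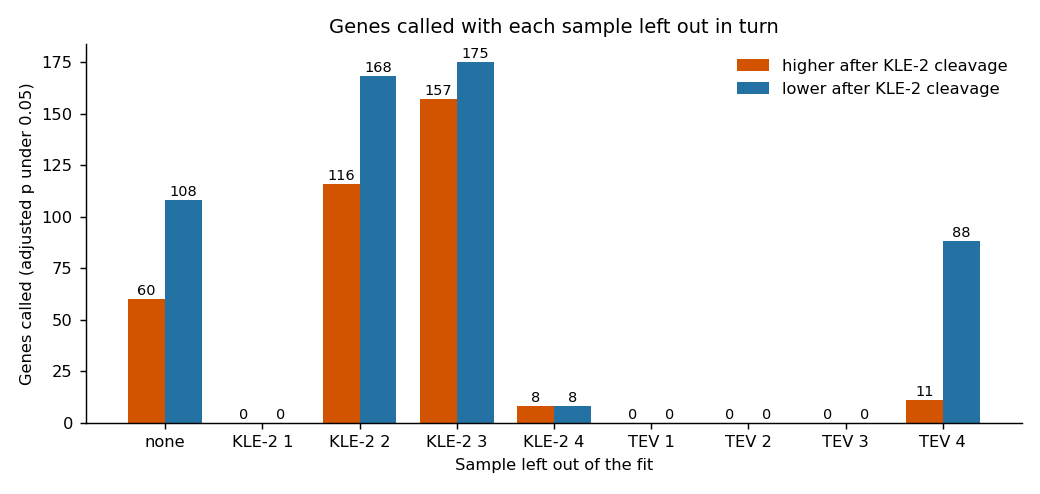
Number of genes called higher (left bars) and lower (right bars) after KLE-2 cleavage by edgeR at an adjusted p under 0.05, with all 8 samples (none) and after the removal of 1 sample at a time. The counts are 0 in both directions without KLE-2 replicate 1 or without control replicate 1, 2 or 3, and highest, at 157 and 175, without KLE-2 replicate 3.

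The called genes were spread over all nuclear chromosomes. Between 9 (chromosome I, 0.407% of its tested genes) and 35 (chromosome V, 1.15%) fell, and between 6 (IV, 0.261%) and 14 (V, 0.461%) rose. As a share of tested genes, most rose on X. On X, the chromosome that a variant of condensin I binds for dosage compensation, 13 rose (0.593%) and 19 fell (0.867%). The median log2 fold change on X was 0.03, within the range of 0.00 to 0.03 of the autosomes. Of the falling genes 24 lay in 8 runs of neighbours with at most 10 kb between them, and of the rising genes 8 lay in 4 runs.

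A direct test set KLE-2 cleavage against the other cleavage groups of the batch. Against SCC-1 cleavage edgeR called 0 of 14345 genes (0%), with 533 higher and 297 lower at an unadjusted p under 0.05, while DESeq2 called 91 higher and 37 lower and limma voom 2 and 11. This does not show that the groups act alike, since the median standard error of the difference was 0.223. For the 108 falling genes the medians were −2.19 after KLE-2 cleavage and −2.84 after SCC-1 cleavage, each relative to the same controls, and for the 60 rising genes they were 1.57 and 1.97. Of the 97 falling genes tested directly, 87 were less reduced after KLE-2 cleavage, with a median difference of 0.51, and of the 60 rising genes 55 were lower, with a median of −0.48. *abu-7* differed by 0.65 (adjusted p = 0.836), *ced-1* by −0.35 (adjusted p = 0.836) and *kle-2* by −0.60 (adjusted p = 0.526). Relative to the controls, edgeR put *abu-7* at −4.515 after SCC-1 cleavage (adjusted p = 0.000645), *idpc-4* at −4.30 (0.000225) and *ced-1* at 1.64 (0.000155). After the same cleavage *zmp-4* was at 2.045 (0.000155), *far-3* at 4.79 (0.00104) and *egl-1* at 3.44 (0.00103), while *kle-2* was at −0.085 (0.244).

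Against DPY-26 cleavage 247 genes were higher (1.73%) and 737 lower (5.15%) of 14301. Of the 108 genes that fell after KLE-2 cleavage, 64 were called lower after KLE-2 than after DPY-26 cleavage, with a median difference of −2.03. Of the 60 rising genes 20 were higher and 1 lower, with a median difference of 0.75. These genes were chosen in the same KLE-2 samples, so the counts are not independent of that choice. Relative to the controls that both share, the falling genes had medians of −2.19 after KLE-2 cleavage and −0.19 after DPY-26 cleavage.

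The difference between KLE-2 and DPY-26 cleavage was large in the pharyngeal cuticle genes, of which *abu-7* and *idpc-4* also fell after SCC-1 cleavage. *abu-7* was lower after KLE-2 than after DPY-26 cleavage, with a log2 difference of −3.52 ± 0.56 (adjusted p = 0.0188), as was *idpc-4* with −2.88 ± 0.631 (adjusted p = 0.0315). In all, 18 of the tested *abu* and *idp* genes were called lower, against 5.15% of all genes. *ced-1* (0.92 ± 0.171, adjusted p = 0.0227), *zmp-4* (0.98 ± 0.204, adjusted p = 0.0279), *far-3* (3.17 ± 0.542, adjusted p = 0.0188) and *egl-1* (2.11 ± 0.48, adjusted p = 0.0349) were higher after KLE-2 cleavage, and *kle-2* lower (−0.52 ± 0.118, adjusted p = 0.0348). In contrast, *acd-1* (−0.04 ± 0.367, adjusted p = 0.958) and *elo-9* (−0.03 ± 0.157, adjusted p = 0.931) did not differ beyond their error. Without KLE-2 replicate 3 the counts against DPY-26 cleavage were 608 higher and 1303 lower, and without KLE-2 replicate 1 they were 4 and 6.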

How the data were processed

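Reads were counted in entire L3 larvae of 8 samples (4 KLE-2 cleavage, 4 TEV control) and, for direct tests, of 4 SCC-1 and 4 DPY-26 cleavage samples, grouped by their labels. The 3 TEV control samples of batch 2 entered 1 alternative, and all other samples were not used. The authors deposited, for each of 2 lanes of a sample, the estimated count of reads and the TPM (scaled by effective length and lane total) of 42938 transcripts. The submitters' processing notes name Salmon 1.5.2, cutadapt 2.5 and STAR 2.7.9a, and the RNA was sequenced from a stranded mRNA kit. The transcriptome release of these estimates is not given in the sources used here. Salmon divides reads between similar transcripts by a model, which makes values of close relatives uncertain. Strand use in its counting is not given, and 66 of the 168 called genes overlap another gene.

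Reads of both lanes were added, then transcripts were collapsed to 19934 genes by the WBcel235 annotation of Ensembl (30905 joined by name, 11992 by the sequence name of their gene, 41 left out), and sums were rounded to whole reads. At most 0.0117% of a sample's reads had no gene. TPM was averaged over lanes. Genes with at least 10 reads in 4 of 8 samples were tested with edgeR 4.0.16 (TMM, quasi-likelihood test, Benjamini-Hochberg adjustment over all genes tested, call at 0.05). DESeq2 1.42.0 and limma 3.58.1 in R 4.3.3 served as alternatives, and tables and figures used Python with pandas and matplotlib. The study's methods use DESeq2 with the same filter. They remove genes that oscillate during development, and that list was not used here. Fits were tested on simulated data. The precision of each value comes from the spread between samples in the fit. The standard error given with an edgeR value is the size of its log2 fold change divided by the square root of the F statistic. It thus restates the test and is not a separate estimate.

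The genes named were the 5 condensin II genes, the 8 largest and 8 smallest fold changes among called genes whose groups do not overlap, the 5 called genes of smallest p in each direction that lost their call without KLE-2 replicate 3, and for each gene list the 2 called members of smallest p in each direction or, with none called, the 1 of smallest p. Others are marked in the text as chosen after their values were seen. The members and lists were chosen with earlier results of these data known. Alternatives were another test, scaling, filter, replicate block, sample weights, samples in the fit and leaving out each sample, and DESeq2 without replicate 3 was added after seeing the data.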

Additional observations from a re-analysis of the deposited data

Results flagged for a closer look

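Of 266 values checked for a sample far from the other 3 of its group, 15 passed the critical value of Dixon's ratio for 4 samples. The ratio is the gap of the far sample over the group's range. Of the 15, 12 were in the KLE-2 cleavage group and 3 in the TEV control. Chance alone gives about 1 such group in 20 if values are independent. These values share the same 8 samples and are not independent, so the 15 cannot be set against that rate. In the cleavage group the sample apart was replicate 3 for the TMM factor (ratio 0.894), the median of ribosomal protein genes (0.963), the median of the mitochondrial genome (0.889) and the CPM of *ugt-6* (0.961), *F13H10.6* (0.851), *ugt-63* (0.902), *pals-26* (0.941), *asp-12* (0.872), *rpl-36* (0.87) and *ltah-1.2* (0.881). Of these, *ugt-6*, *F13H10.6*, *ugt-63*, *pals-26*, *asp-12* and *ltah-1.2* were named because they gained a call without replicate 3. That replicate 3 stood apart in them follows in large part from this choice. Replicate 2 was the sample apart for *ugt-28* (0.917) and *T02B11.4* (0.901). In the control group the sample apart was replicate 4 for *C06A1.7* (0.85), replicate 3 for *F13H10.6* (0.879) and replicate 4 for the median of the moulting list (0.872).

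The change after KLE-2 cleavage differed from that after DPY-26 cleavage in 7 genes checked (edgeR's quasi-likelihood test of the 2 groups, adjusted over all genes). For the 7 genes the differences on the log2 scale were −3.52 for *abu-7*, −3.73 for *abu-6*, −4.08 for *pqn-57* and −3.15 for *idpc-6*. They were 2.55 for Y39A3B.7, −0.52 for *kle-2* and 3.17 for *far-3*, positive where KLE-2 cleavage was higher.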

How the results depend on the processing

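The number of calls depended on the test and the samples. The counts, higher and lower, were 60 and 108 with edgeR, 522 and 481 with DESeq2, 841 and 857 with DESeq2 without replicate 3, 333 and 296 with all 16 samples of batch 1 in the fit, 1137 and 1224 with limma voom and sample quality weights, and 34 and 7 with the batch 2 controls added. Leaving out 1 sample gave 0 to 157 higher and 0 to 175 lower. RLE scaling and no filter on low counts stayed within 1.5 times. Against SCC-1 cleavage (0 and 0 with edgeR) DESeq2 called 91 and 37, limma voom 2 and 11, all 16 samples 0 and 3, and leaving out 1 sample 0 in both directions. Against DPY-26 cleavage (247 and 737) the counts were 880 and 1466 with DESeq2, 1274 and 1865 with all 16 samples, 1908 and 2825 with limma voom, and 4 to 608 and 6 to 1303 with 1 sample left out. The cause was not tested.

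The replicate numbers did not pair the samples: the deviations of same-numbered cleavage and control samples correlated at −0.104, 0.202, −0.202 and 0.113 across genes. With the replicate number as a block, 9 genes were higher and 21 lower, of which 28 were among the 168, and against DPY-26 cleavage the counts were 180 and 360. The design of 4 against 4 samples and the spread within the cleavage group limit what can be called, and genes of few reads, such as the *nspb* family, are measured least well. Growth stage was not measured, and the part of moult timing in the cuticle changes was not tested.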
